A study of Mus musculus with 12 samples.

Results

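The genes described here are 33 genes of erythroid differentiation and heme synthesis, chosen by name from the deposited count table, which has 55291 genes. They comprise the adult globins and the alpha-globin chaperone *Ahsp*, the enzymes of heme synthesis, genes of iron supply, genes of the red cell membrane and its cytoskeleton, erythroid transcription factors, and a few enzymes and other proteins of red cells. Of the 33 genes, 32 were found in the table and 31 had counts, and each of these 31 passed the filter on low counts that left 15825 genes for testing. *Ahsp* was not analysed here. *Icam4*, a red cell adhesion molecule, had no count in any library, although 95.0% of the 50-base windows of its transcript also occur in *Gm47079*, a gene on the opposite strand, so that its zero cannot be read as absence.

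Red cells arise in the bone marrow from progenitors that first express the factors GATA1, KLF1, and GFI1B and genes of the membrane and of iron uptake. The rate-limiting heme enzyme of erythroid cells, ALAS2, and the globins reach their highest levels later, in hemoglobin-filling erythroblasts. Most of these later cells have lost the receptor cKit, whereas the early progenitors carry it.

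RNA of Lin-cKit+ (LK) bone marrow cells, a mixture of stem and progenitor cells of all blood lineages, was sequenced from 12 C57BL/6 mice aged 12 months, with 1 library per mouse and 3 mice per genotype. The genotypes were WT, Kdm6bΔ/+, Asxl1Y588XTg, and Asxl1Y588XTg Kdm6bΔ/+. Kdm6bΔ/+ mice had lost 1 allele of *Kdm6b*, a demethylase of the repressive histone mark H3K27me3, through the interferon-inducible *Mx1Cre* after pI:pC injection, so that the deletion was not limited to erythroid or LK cells. Asxl1Y588XTg mice carried a transgene for a truncated ASXL1 protein, and whether the WT and Asxl1Y588XTg mice of these libraries carried the Cre or received pI:pC was not given in the sources used here. The comparisons address how the transgene altered gene expression in these cells and whether the loss of 1 *Kdm6b* allele reversed it, and here they are read for the erythroid genes.

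Total counts ranged from 14451522 to 23482563 per library. The level of *Kit*, the gene used to select the cells, ranged from 5764 to 7759 normalized counts (counts scaled to the mean library size), and *Kdm6b* ranged from 1346 to 1909 in the 6 libraries with the deletion and from 1869 to 2372 in the 6 without it, with no overlap between the deletion and its own control group. Y-linked transcripts were present in 6 libraries, which had 13 to 26 counts of *Xist*, against 10316 to 16906 in the other 6. This split is as between male and female mice, although the labels give no sex. The distribution of the Y-linked transcripts was uneven, with 0 of 3 WT, 2 of 3 Kdm6bΔ/+ (replicates 1 and 3), 1 of 3 Asxl1Y588XTg (replicate 2), and 3 of 3 Asxl1Y588XTg Kdm6bΔ/+ libraries. Genotype and the presence of Y-linked transcripts therefore cannot be told apart between WT and Asxl1Y588XTg Kdm6bΔ/+ mice. In bulk RNA, fewer cells of a type and less RNA per cell cannot be told apart either.

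The promoters of the genes on which the results turn are shown first, with short motifs marked, each of which occurs in only some of them. The set of RefSeq (GRCm38.p6) promoters used here had an entry for 26 of the 33 genes. The stretches shown are the 150 bases before the RefSeq start site, with capitals marking 4 motifs searched on both strands: GATAA, which GATA factors bind, CCNCNCCC, the type of box that KLF factors bind, CCAAT, a common promoter box, and a TATA box spelled ATATAA. Capitals run together where motifs touch or overlap, as in the repeated CCNCNCCC matches of *Alas2* and the facing CCAAT matches of *Hbb-bt*.
Hbb-bs, beta-globin, chr7:103827929-103828078, minus strand: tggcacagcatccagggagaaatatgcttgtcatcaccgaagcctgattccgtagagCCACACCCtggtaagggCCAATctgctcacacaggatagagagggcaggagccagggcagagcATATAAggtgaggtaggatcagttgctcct
Hbb-bt, beta-globin, chr7:103813924-103814073, minus strand: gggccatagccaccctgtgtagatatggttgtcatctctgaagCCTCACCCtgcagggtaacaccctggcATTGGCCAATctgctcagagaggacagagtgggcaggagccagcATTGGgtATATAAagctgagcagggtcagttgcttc
Hba-a2, alpha-globin, chr11:32296342-32296491, plus strand: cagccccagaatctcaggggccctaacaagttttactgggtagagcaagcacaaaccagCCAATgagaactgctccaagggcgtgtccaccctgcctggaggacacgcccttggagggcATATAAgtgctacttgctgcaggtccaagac
Alas2, erythroid heme enzyme, chrX:150547267-150547416, plus strand: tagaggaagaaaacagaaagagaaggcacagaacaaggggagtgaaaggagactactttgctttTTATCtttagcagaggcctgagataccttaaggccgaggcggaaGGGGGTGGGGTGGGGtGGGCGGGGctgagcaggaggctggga
Klf1, erythroid factor, chr8:84901832-84901981, plus strand: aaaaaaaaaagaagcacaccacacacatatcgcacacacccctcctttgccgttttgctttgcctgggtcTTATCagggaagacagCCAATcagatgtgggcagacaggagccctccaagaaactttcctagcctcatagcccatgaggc
Gata1, erythroid factor, chrX:7967911-7968060, minus strand: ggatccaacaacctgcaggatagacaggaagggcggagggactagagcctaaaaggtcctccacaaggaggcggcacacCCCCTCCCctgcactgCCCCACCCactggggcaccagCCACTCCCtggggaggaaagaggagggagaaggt

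The stretches of *Hbb-bs*, *Hbb-bt*, and *Hba-a2* held ATATAA about 30 bases before the start, with its first base at positions -30, -29, and -31, and a CCAAT upstream of it. Within the whole RefSeq promoter window of 300 bases, the window of *Hba-a1* was identical to that of *Hba-a2* over all 297 bases in which they overlap, so only *Hba-a2* is shown. GATAA was found in the windows of 15 of the 26 genes (57.7%) and in 25.8% of all 27025 promoters. Within the shorter stretches shown, it was marked in *Alas2* and *Klf1* only. CCNCNCCC was found in 18 (69.2%, against 49.1% of all promoters), and CCAAT in 15 (57.7%, against 37.9%). ATATAA was found in 4 (15.4%, against 10.2%), which were the 4 globin genes. These are matches of letters, and no binding was measured.

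At the protein level, the members of each globin pair cannot be told apart. The reading frames of *Hba-a1* and *Hba-a2* differ by 1 of 429 bases (C381T, counted from the A of the start codon, *Hba-a1* first), those of *Hbb-bs* and *Hbb-bt* by 1 of 444 (C417T, *Hbb-bs* first), and neither change alters an amino acid. Of the 50-base windows of their transcripts, 67.5% of those of *Hba-a1*, 86.9% of *Hba-a2*, 65.8% of *Hbb-bs*, and 58.3% of *Hbb-bt* are shared with the other copy. By default the counting program, HTSeq, leaves out reads that align equally well to both copies, so the counts of a single copy rest on the windows that differ, and the copies are also given as their sum. Of the other genes, *Alas2* shares 13.8% of its windows with the opposite-strand genes *Apex2* and *Mir3620*, *Car1* shares 14.5% with *Gm5843*, and 11 of the 32 genes overlap another annotated gene. Since the strand setting of the counting was not given, reads of overlapping genes on opposite strands cannot be told apart here.

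The adult globins were measured at a low share of the RNA, between 0.0101% and 0.0537% of all counts in a library. Embryonic beta-globin *Hbb-y* had no count, and *Hbb-bh1* and the embryonic alpha-globin *Hba-x* reached at most 3.21 and 5.16 normalized counts. Per kilobase of exon and averaged over the 4 genotypes, the most abundant genes were the carbonic anhydrase *Car2* (3955 normalized counts per kb), *Hbb-bs* (3648), *Car1* (3628), the water channel *Aqp1* (1416), and the transferrin receptor *Tfrc* (1118). *Klf1* reached 628 and *Gata1* 314, whereas *Alas2* reached 91.3 and the membrane protein gene *Epb42*, the lowest of the 31, 41.2. These per-kb levels take no account of windows shared between copies. RNA of progenitor genes and of genes of hemoglobin filling was thus measurable in these libraries. Whether the globin RNA came from cKit+ cells or from other cells left in the preparation was not tested.

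**Figure D1:**
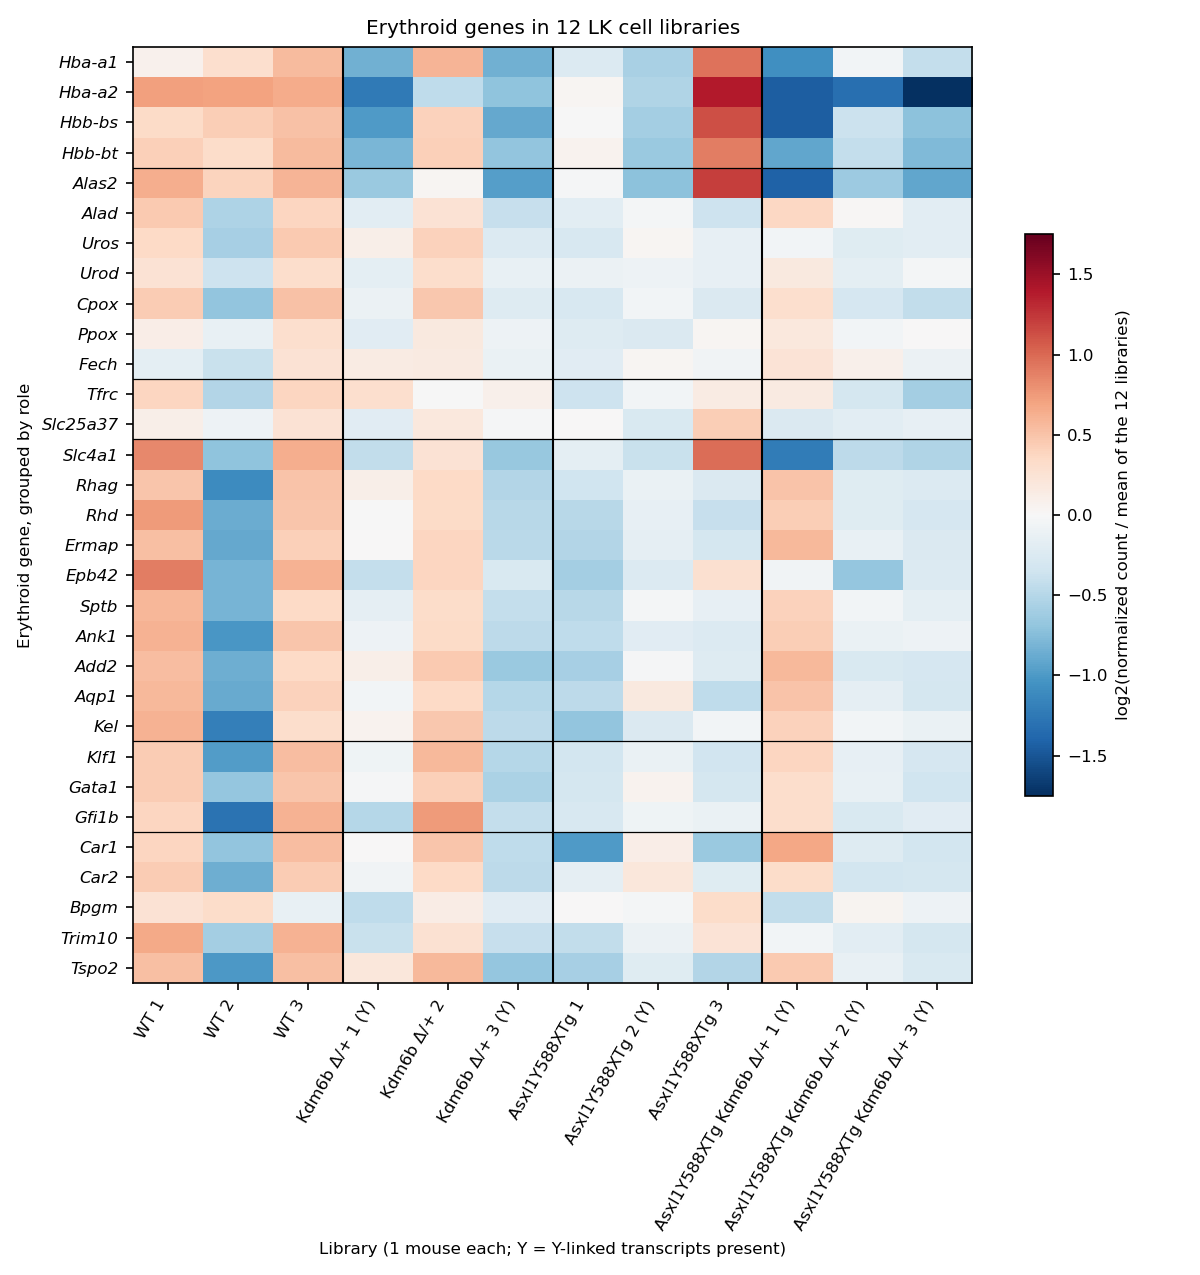
Normalized count of each of the 31 erythroid genes with counts in each of the 12 libraries, as log2 of its ratio to the mean of the 12 libraries (color), with genes in rows by role and libraries in columns by genotype. The 4 globins and *Alas2* were high in the WT libraries and Asxl1Y588XTg replicate 3 and low in the libraries with Y-linked transcripts (Y), whereas most other genes were lowest in WT replicate 2.

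The hemoglobin genes varied together from mouse to mouse. *Hbb-bs*, on chromosome 7 at 103826534-103828096 (mm10, GENCODE vM21), gave 3549, 3785, and 3994 normalized counts in WT replicates 1 to 3, 1406, 3693, and 1506 in Kdm6bΔ/+, 2800, 1850, and 6150 in Asxl1Y588XTg, and 1027, 2160, and 1696 in Asxl1Y588XTg Kdm6bΔ/+. *Hbb-bt* gave 990, 920, and 1085 in WT, 424, 986, and 459 in Kdm6bΔ/+, 774, 469, and 1380 in Asxl1Y588XTg, and 395, 551, and 433 in Asxl1Y588XTg Kdm6bΔ/+. In both genes the Asxl1Y588XTg Kdm6bΔ/+ libraries lay below every WT library, Kdm6bΔ/+ replicate 2 stood with the WT libraries while its group mates were far lower, and Asxl1Y588XTg replicate 3 was the highest of all.

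The alpha-globin genes lie on chromosome 11, *Hba-a1* at 32283511-32284465 and *Hba-a2* at 32296489-32297298. *Hba-a1* gave 576, 665, and 797 normalized counts in WT, 304, 823, and 303 in Kdm6bΔ/+, 461, 367, and 1050 in Asxl1Y588XTg, and 258, 526, and 409 in Asxl1Y588XTg Kdm6bΔ/+. *Hba-a2* gave 326, 321, and 310 in WT, 84.2, 146, and 121 in Kdm6bΔ/+, 202, 138, and 519 in Asxl1Y588XTg, and 73.0, 79.0, and 53.6 in Asxl1Y588XTg Kdm6bΔ/+. *Hba-a2* was thus below every WT library in each library with the *Kdm6b* deletion, Kdm6bΔ/+ replicate 2 included, while *Hba-a1* was not.

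*Alas2*, on chromosome X at 150547375-150570638, followed the globins. It gave 341, 286, and 332 normalized counts in WT, 139, 225, and 112 in Kdm6bΔ/+, 216, 134, and 505 in Asxl1Y588XTg, and 82.6, 141, and 117 in Asxl1Y588XTg Kdm6bΔ/+. *Slc4a1*, the anion exchanger band 3 of the red cell membrane, gave 1629, 555, and 1412 in WT, 671, 1080, and 574 in Kdm6bΔ/+, 807, 691, and 1777 in Asxl1Y588XTg, and 386, 662, and 630 in Asxl1Y588XTg Kdm6bΔ/+. *Slc4a1* shared the high value of Asxl1Y588XTg replicate 3, but its WT replicate 2 was low, so the WT and Asxl1Y588XTg Kdm6bΔ/+ libraries overlapped.

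**Figure D2:**
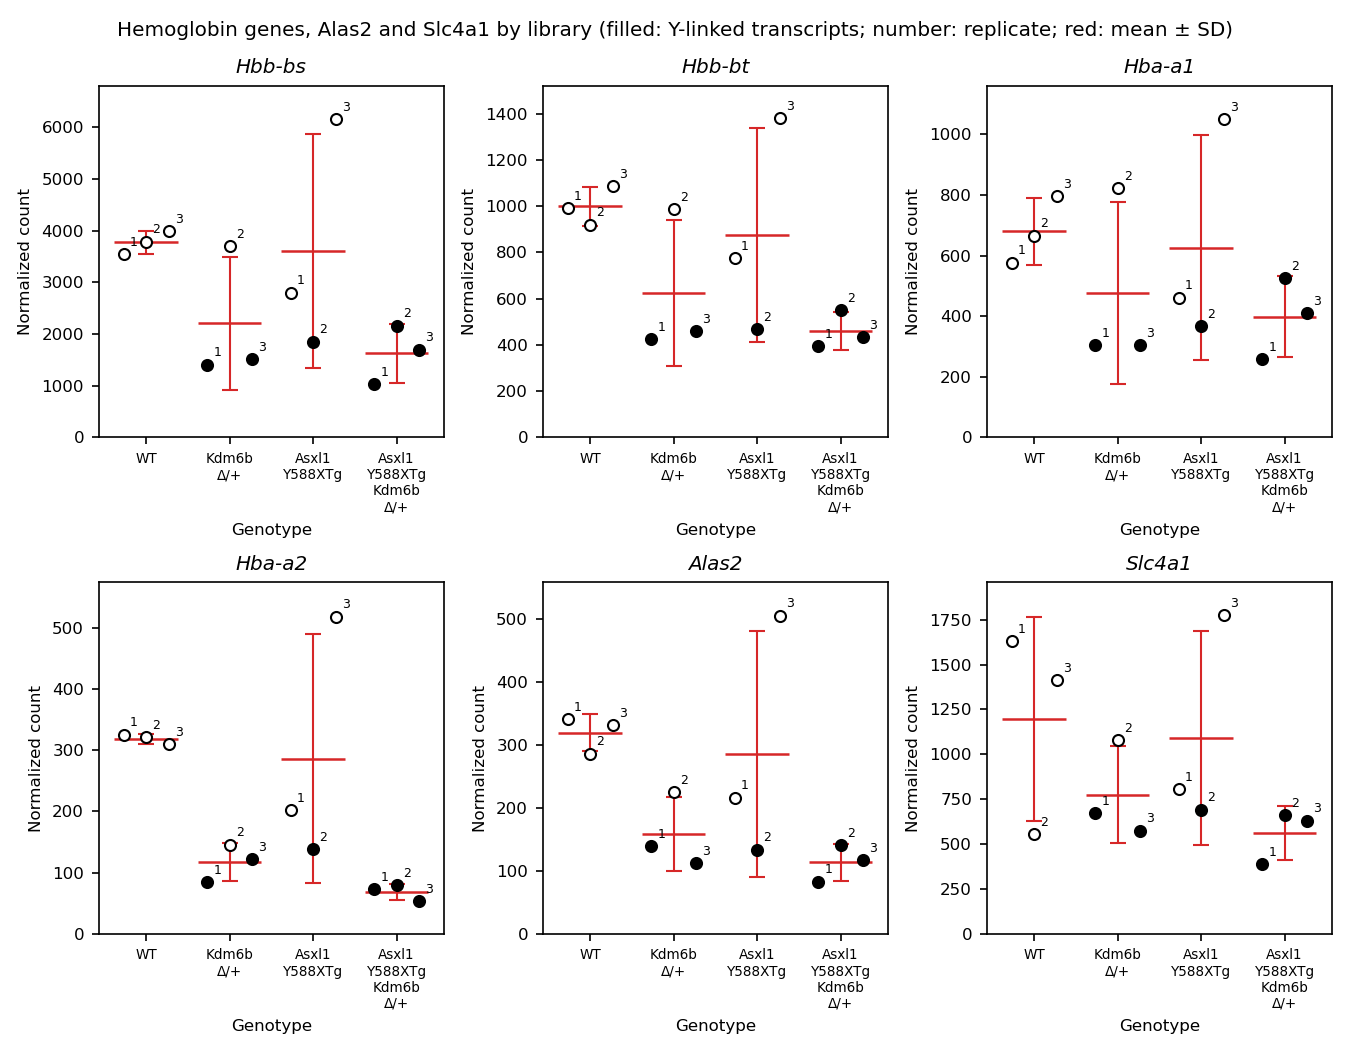
Normalized counts (y axis, from 0) of the 4 adult globin genes, *Alas2*, and *Slc4a1* in each library by genotype (x axis), with replicate numbers beside the points, filled points for libraries with Y-linked transcripts, and the mean ± SD of the 3 libraries in red. The 3 Asxl1Y588XTg Kdm6bΔ/+ libraries sit below the 3 WT libraries for the globins and *Alas2*, and open points sit above filled points for *Hbb-bs*, *Hbb-bt*, *Hba-a2*, and *Alas2*.

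Compared with WT cells, Asxl1Y588XTg Kdm6bΔ/+ cells had lower levels of 3 of the 31 genes by edgeR's quasi-likelihood test, while 0.0695% of all genes were called lower and 0.145% higher. A gene was called at a Benjamini-Hochberg adjusted p under 0.05, with all tested genes in the adjustment, and a fold change above 1.5. *Hba-a2* fell from 319 ± 7.97 to 68.6 ± 13.3 normalized counts (SD, n = 3 each), a log2 fold change of -2.20 (SE 0.18, adjusted p = 0.000336). *Alas2* fell from 320 ± 29.4 to 113 ± 29.3 (log2 fold change -1.49, SE 0.20, adjusted p = 0.0174). *Hbb-bt* fell from 998 ± 82.7 to 460 ± 81.4 (log2 fold change -1.11, SE 0.13, adjusted p = 0.00763). *Hbb-bs* had a log2 fold change of -1.20 (SE 0.24, adjusted p = 0.241) and *Hba-a1* one of -0.77 (SE 0.23, adjusted p = 0.524), and neither passed this test. With DESeq2, *Hbb-bs* was called as well (log2 fold change -1.20, SE 0.19, adjusted p = 4.19e-07), and *Hba-a1* was not (adjusted p = 0.0806). DESeq2 called 40 of the 15825 genes tested lower.

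Of the 31 genes, 6 had no overlap between Asxl1Y588XTg Kdm6bΔ/+ and WT libraries, each lower in the mutant (6.87% of all genes were lower without overlap). These were the 4 globins, *Alas2*, and *Slc25a37*, which carries iron into mitochondria and gave 1522, 1335, and 1695 in WT against 1191, 1251, and 1289 (log2 fold change -0.28, SE 0.10, adjusted p = 0.631). The median of the log2 fold changes was -0.19 over the 31 genes and -0.00033 over all genes tested, and 29 of 31 lay below 0 (50.1% of all genes). With the copies summed, the alpha-globins differed by -1.09 (SE 0.19, adjusted p = 0.0769) and the beta-globins by -1.18 (SE 0.20, adjusted p = 0.139), and *Alas2* alone was called (0.0506% of all genes). Without WT replicate 3 or without Asxl1Y588XTg Kdm6bΔ/+ replicate 3, *Hba-a2* alone was called (0.0316% of all genes in either fit), with adjusted p-values of 0.100 and 0.0632 for *Hbb-bt* and of 0.136 and 0.0997 for *Alas2*. Without Asxl1Y588XTg Kdm6bΔ/+ replicate 1 or 2, *Hbb-bs* was called as well (adjusted p = 0.0137 and 0.0298, when 0.0632% and 0.0569% of all genes were called lower), and without WT replicate 2, *Slc4a1* was (log2 fold change -1.43, SE 0.21, adjusted p = 0.0457; 0.126% of all genes were called lower).

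Markers of other cells also differed in this comparison. The summed megakaryocyte and platelet markers were at 193 to 296 CPM in Asxl1Y588XTg Kdm6bΔ/+ libraries against 103 to 184 in WT, with 5 of 12 markers higher without overlap. Of the 15825 genes tested, 1057 were higher without overlap in this comparison. The summed B and plasma cell markers were at 456 to 470 CPM against 175 to 270, with 1 of 9 higher without overlap, the plasma cell gene *Jchain*, at 287 to 382 CPM against 99.6 to 132. No marker of these lists was at 0 in every library, the sums of the other lists overlapped between the groups, and the part of these cells in the low globins was not tested.

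Outside the globins and *Alas2*, none of the genes passed the test between Asxl1Y588XTg Kdm6bΔ/+ and WT cells. The heme enzymes after ALAS2 ranged from -0.28 (*Cpox*, SE 0.35) to 0.18 (*Fech*, SE 0.15) on the log2 scale, and *Tfrc* had -0.34 (SE 0.29). Membrane and cytoskeleton genes ranged from -1.09 (*Slc4a1*, SE 0.43, adjusted p = 0.722) to 0.017 (*Kel*, a blood group antigen, SE 0.41). The factors ranged from -0.19 (*Gata1*, SE 0.31) to -0.12 (*Klf1*, SE 0.41), and the remaining genes from -0.50 (*Trim10*, SE 0.29) to -0.039 (*Car1*, SE 0.40).

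In Kdm6bΔ/+ cells compared with WT cells, 1 of 31 genes was called, *Hba-a2*, at 117 ± 31 against 319 ± 7.97 normalized counts (log2 fold change -1.44, SE 0.21, adjusted p = 0.0202), and 0.0758% of all genes were called higher and 0.019% lower. *Alas2* differed by -1.005 (SE 0.23, adjusted p = 0.464) with no overlap between the groups, a separation seen in 2 of 31 genes and in 4.8% of all genes. The other 3 globins ranged from -0.78 (*Hbb-bs*, SE 0.43) to -0.50 (*Hba-a1*, SE 0.45), each with an adjusted p above 0.99. Summed over their copies, the alpha-globins differed by -0.74 (SE 0.38) and the beta-globins by -0.76 (SE 0.42), and neither sum was called (0.0126% of all genes were called lower in that fit). Of the 31 genes, 30 had a log2 fold change below 0 (50.8% of all genes), with a median of -0.15.

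The calls of this comparison changed with single libraries and with settings. Without Kdm6bΔ/+ replicate 2, the library of that genotype without Y-linked transcripts, all 4 globins and *Alas2* were called lower (0.0695% of all genes), with log2 fold changes from -1.63 (*Hba-a2*, adjusted p = 0.0130) to -1.16 (*Hba-a1*, adjusted p = 0.0168). *Alas2* was called along with *Hba-a2* by DESeq2 (0.0948% of all genes were called lower) and without a filter on low counts (0.0795%). The call of *Hba-a2* was lost without WT replicate 3 (adjusted p = 0.168), without Kdm6bΔ/+ replicate 1 (adjusted p = 0.0889), and without Kdm6bΔ/+ replicate 3 (adjusted p = 0.0872). Its log2 fold change stayed between -1.63 and -1.25 with any 1 library left out.

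The pair of alpha-globin copies did not keep a constant ratio. The ratio of *Hba-a1* to *Hba-a2* counts was 1.77, 2.07, and 2.57 in WT, 3.61, 5.65, and 2.50 in Kdm6bΔ/+, 2.28, 2.66, and 2.03 in Asxl1Y588XTg, and 3.54, 6.66, and 7.63 in Asxl1Y588XTg Kdm6bΔ/+. Each Asxl1Y588XTg Kdm6bΔ/+ library lay above each WT and Asxl1Y588XTg library, and with 3 libraries per group an exact permutation test cannot give a two-sided p below 0.10. The *Hba-a2* counts behind these ratios were as low as 52. In contrast, the summed beta-globins stood at 4.29 to 5.39 times the summed alpha-globins in every library, while the sum of the 4 globins ranged from 1753 to 9099 normalized counts.

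The hemoglobin genes also followed the Y-linked transcripts. In *Hbb-bs*, *Hbb-bt*, *Hba-a2*, and *Alas2*, all 6 libraries with Y-linked transcripts lay below all 6 without them, which was the case for 4 of 31 genes and for 0.265% of all genes. *Hba-a2* ranged from 53.6 to 138 in the libraries with Y-linked transcripts and from 146 to 519 in the others. In a fit of all 12 libraries with genotype and the presence of Y-linked transcripts as terms, the latter term was -1.31 for *Hbb-bs* (SE 0.34), -1.24 for *Hba-a1* (SE 0.34), -1.18 for *Hbb-bt* (SE 0.19), -1.14 for *Alas2* (SE 0.31), and -0.95 for *Hba-a2* (SE 0.34) on the log2 scale. None of the 31 genes was called for this term (0.0253% of all genes were called higher and 0.0126% lower), the nearest being *Hbb-bt* with an adjusted p of 0.104, and 6 had an unadjusted p under 0.05, all lower (1.48% of all genes).

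The term could be estimated only within Kdm6bΔ/+ and Asxl1Y588XTg, the genotypes that held libraries of both kinds. For Asxl1Y588XTg Kdm6bΔ/+ against WT it was carried over from those genotypes, so the differences of that pair are not separate estimates of genotype. With the term in the model, they were -1.26 for *Hba-a2* (SE 0.46, adjusted p = 0.980), -0.37 for *Alas2* (SE 0.42, adjusted p = 0.980), and 0.058 for *Hbb-bt* (SE 0.26, adjusted p = 0.990). In that pair *Hba-a1* had 0.46 (SE 0.47) and *Hbb-bs* 0.091 (SE 0.47). For Kdm6bΔ/+ against WT, the difference of *Hba-a2* was -0.83 (SE 0.39, adjusted p above 0.99). The other globins ranged from -0.054 (*Hbb-bs*, SE 0.39) to 0.15 (*Hba-a1*, SE 0.38), and *Alas2* had -0.31 (SE 0.35). No erythroid gene was called between genotypes in that fit. The 2 genotypes with the *Kdm6b* deletion include 5 of the 6 libraries with Y-linked transcripts, and the part of these transcripts in the low globin levels was not tested apart from genotype in any pair of groups.

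Genes of the membrane, the transcription factors, and most heme enzymes varied in another way, in which WT replicate 2 stood apart. *Klf1*, a factor that switches on much of the erythroid program, is on chromosome 8 at 84901928-84905291. It gave 1307, 488, and 1398 normalized counts in WT, 914, 1417, and 679 in Kdm6bΔ/+, 767, 884, and 765 in Asxl1Y588XTg, and 1251, 872, and 786 in Asxl1Y588XTg Kdm6bΔ/+. *Gata1*, on chromosome X at 7959260-7978071, gave 1039, 481, and 1074 in WT, 756, 1025, and 519 in Kdm6bΔ/+, 620, 798, and 619 in Asxl1Y588XTg, and 943, 702, and 604 in Asxl1Y588XTg Kdm6bΔ/+. For both factors WT replicate 2 was the lowest of the 12 libraries, and the other WT libraries were near the top.

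*Car1*, an early erythroid carbonic anhydrase, gave 5854, 2794, and 6604 normalized counts in WT, 4559, 6364, and 3341 in Kdm6bΔ/+, 2285, 4912, and 2895 in Asxl1Y588XTg, and 7240, 3880, and 3607 in Asxl1Y588XTg Kdm6bΔ/+. *Tfrc*, which takes up iron-loaded transferrin, gave 8938, 4835, and 9005 in WT, 8445, 6900, and 7341 in Kdm6bΔ/+, 5368, 6678, and 7615 in Asxl1Y588XTg, and 7699, 5602, and 4565 in Asxl1Y588XTg Kdm6bΔ/+. These genes overlapped between all genotypes, and the spread within a genotype was as wide as that between them.

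**Figure D3:**
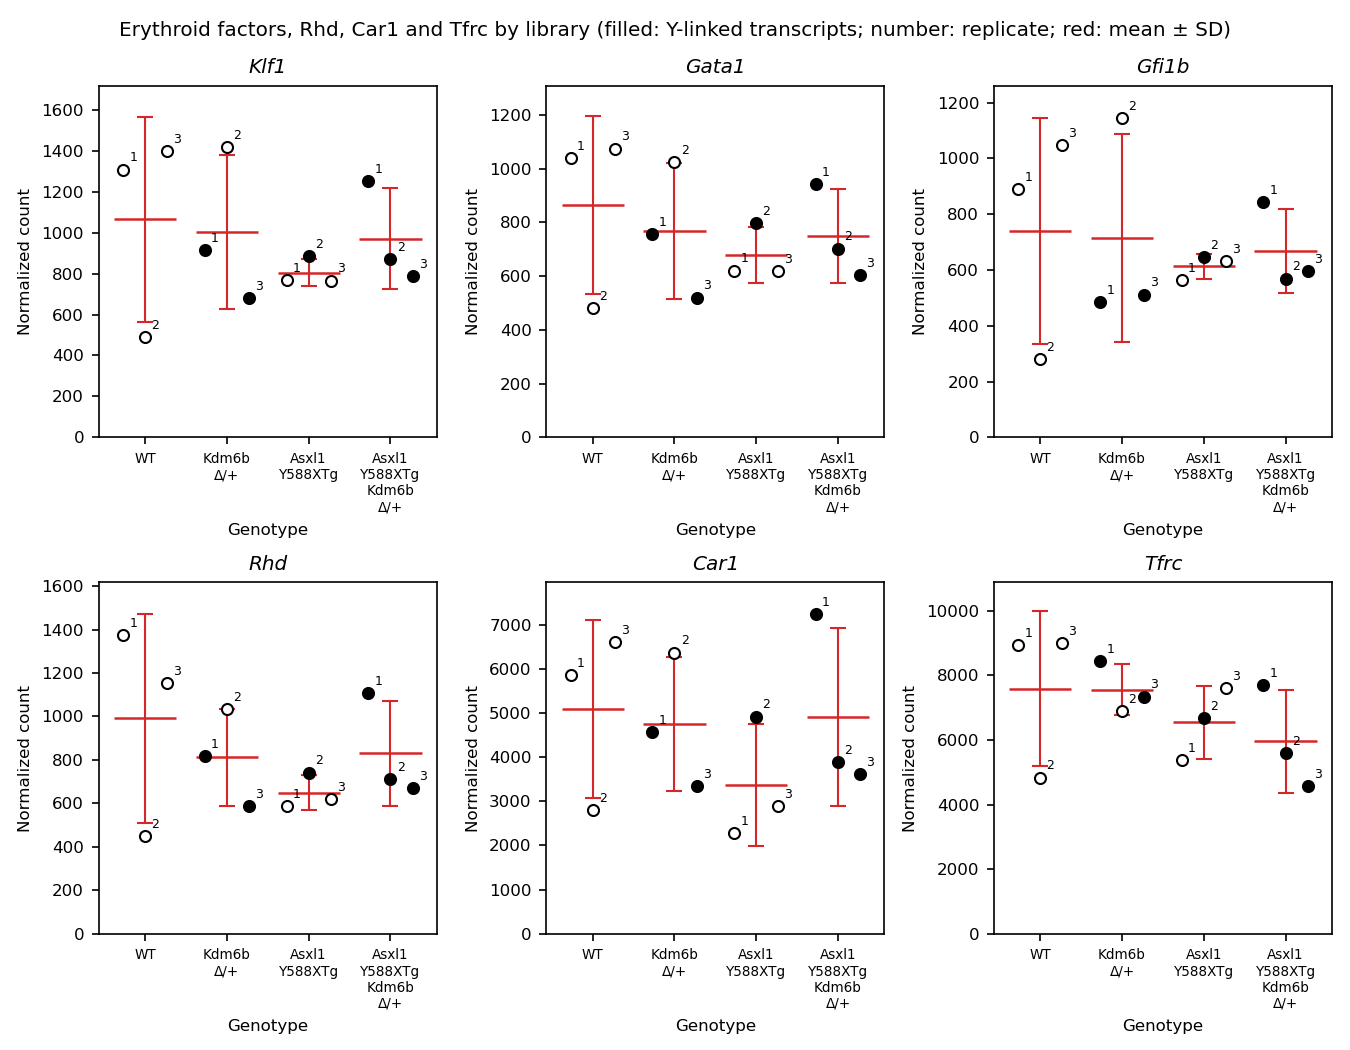
Normalized counts (y axis, from 0) of *Klf1*, *Gata1*, *Gfi1b*, *Rhd*, *Car1*, and *Tfrc* in each library by genotype (x axis), with replicate numbers beside the points, filled points for libraries with Y-linked transcripts, and the mean ± SD of the 3 libraries in red. WT replicate 2 lies far below WT replicates 1 and 3 in each gene, at 488 against 1307 and 1398 for *Klf1*.

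WT replicate 2 had the lowest value of the 12 libraries for 20 of 31 genes, against 11.1% of all genes tested. It lay below 0.6 times the mean of WT replicates 1 and 3 for 21 of 31 genes (8.26% of all genes), with a median ratio of 0.446 (1.01 for all genes). The globins and *Alas2* were not among these 21 genes, and *Hba-a2* had a ratio of 1.01. The summed membrane and cytoskeleton genes were at 7847 normalized counts in this library, against 22071 and 19698 in the other WT libraries, and the 3 transcription factors at 1249 against 3236 and 3519. Of the 82 tested genes of a wider erythroid list, 37 were lowest in it. The summed markers of neutrophils and their precursors were at 95558 CPM (counts scaled by library size) in WT replicate 2, against 77165 and 70708 in the other WT libraries and 68145 to 88145 in the mutant libraries. The sum followed 9 of the 13 markers, granule and late genes such as *Ngp* and *S100a8*, which were above both other WT libraries. The other 4, the precursor genes *Elane*, *Mpo*, *Prtn3*, and *Ctsg*, were below both, with *Mpo* at 9439 CPM against 10817 and 10526. The summed markers of mast cells and basophils were at 205 CPM against 137 and 120, and those of megakaryocytes and platelets at 103 against 178 and 184. The part of these cells in the low erythroid values was not tested.

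Asxl1Y588XTg cells compared with WT cells showed no called erythroid gene in edgeR's quasi-likelihood test (0 of 31), while 1.58% of all genes were called higher and 0.0316% lower. DESeq2 also called 0 of 31, when it called 456 of the 15825 genes tested higher and 17 lower. At an unadjusted p under 0.05 in edgeR's test, the number was again 0 of 31, against 7.3% of all genes higher and 2.05% lower. Of the 31 genes, 30 had a log2 fold change below 0 (52.2% of all genes). Values ran from -0.62 for the Rh antigen gene *Rhd* (SE 0.40, adjusted p = 0.766) to 0.0054 for *Fech*, which inserts iron in the last step of heme synthesis (SE 0.15, adjusted p = 0.997). The median was -0.35, against -0.010 for all genes. The 3 comparisons with WT share the WT libraries, and the same number, 30 of 31, lay below 0 in Kdm6bΔ/+ against WT. Many of the genes also rise and fall together between libraries, so these numbers do not count separate observations. By role, the medians were -0.14 for the globins, -0.25 for heme synthesis, -0.11 for iron supply, -0.40 for the membrane and cytoskeleton, -0.35 for the transcription factors, and -0.40 for enzymes and other proteins. Heme enzymes ranged from -0.38 (*Cpox*, SE 0.31) to the value of *Fech*, membrane genes from that of *Rhd* to -0.14 (*Slc4a1*, SE 0.55), and factors from -0.41 (*Klf1*, SE 0.38) to -0.27 (*Gfi1b*, SE 0.46). The globins ranged from -0.19 (*Hbb-bt*, SE 0.38) to -0.068 (*Hbb-bs*, SE 0.45), and the remaining genes from -0.61 (*Tspo2*, which is specific to erythroid cells, SE 0.36) to -0.055 (*Bpgm*, an enzyme that sets the oxygen affinity of hemoglobin, SE 0.16). Of the 31 genes, 0 were free of overlap between the groups (10.5% of all genes higher and 5.21% lower).

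Without WT replicate 2, 11 of 31 genes were called lower in Asxl1Y588XTg cells, when 0.265% of all genes were. These were the factors *Klf1* (log2 fold change -0.75, SE 0.09, adjusted p = 0.00859), *Gata1* (-0.64, SE 0.12, adjusted p = 0.0373), and *Gfi1b* (-0.66, SE 0.11, adjusted p = 0.0227), the heme enzymes *Alad* and *Cpox*, the blood group and membrane genes *Rhag*, *Rhd*, and *Ermap*, the cytoskeletal genes *Sptb* and *Ank1*, and *Tspo2*. Their changes ranged from -0.60 (*Alad*) to -0.96 (*Rhd*). The globins stayed between -0.25 (*Hbb-bt*) and -0.065 (*Hbb-bs*). Each of the 11 called genes was lowest in WT replicate 2, so leaving it out raised their WT mean and left 2 WT libraries. The SEs and adjusted p-values of this fit therefore follow from that choice of library. With any other library left out, 0 of 31 genes were called, so that the comparison turned on 1 WT mouse. Asxl1Y588XTg libraries had 301 to 776 CPM of summed megakaryocyte and platelet markers, against 103 to 184 in WT, a lineage that shares *Gata1* and *Gfi1b* with red cells. Their summed markers of stem and multipotent progenitor cells were at 708 to 830 CPM, against 587 to 618 in WT, with 7 of 10 markers higher without overlap. The part of these cells in the values was not tested.

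**Figure D4:**
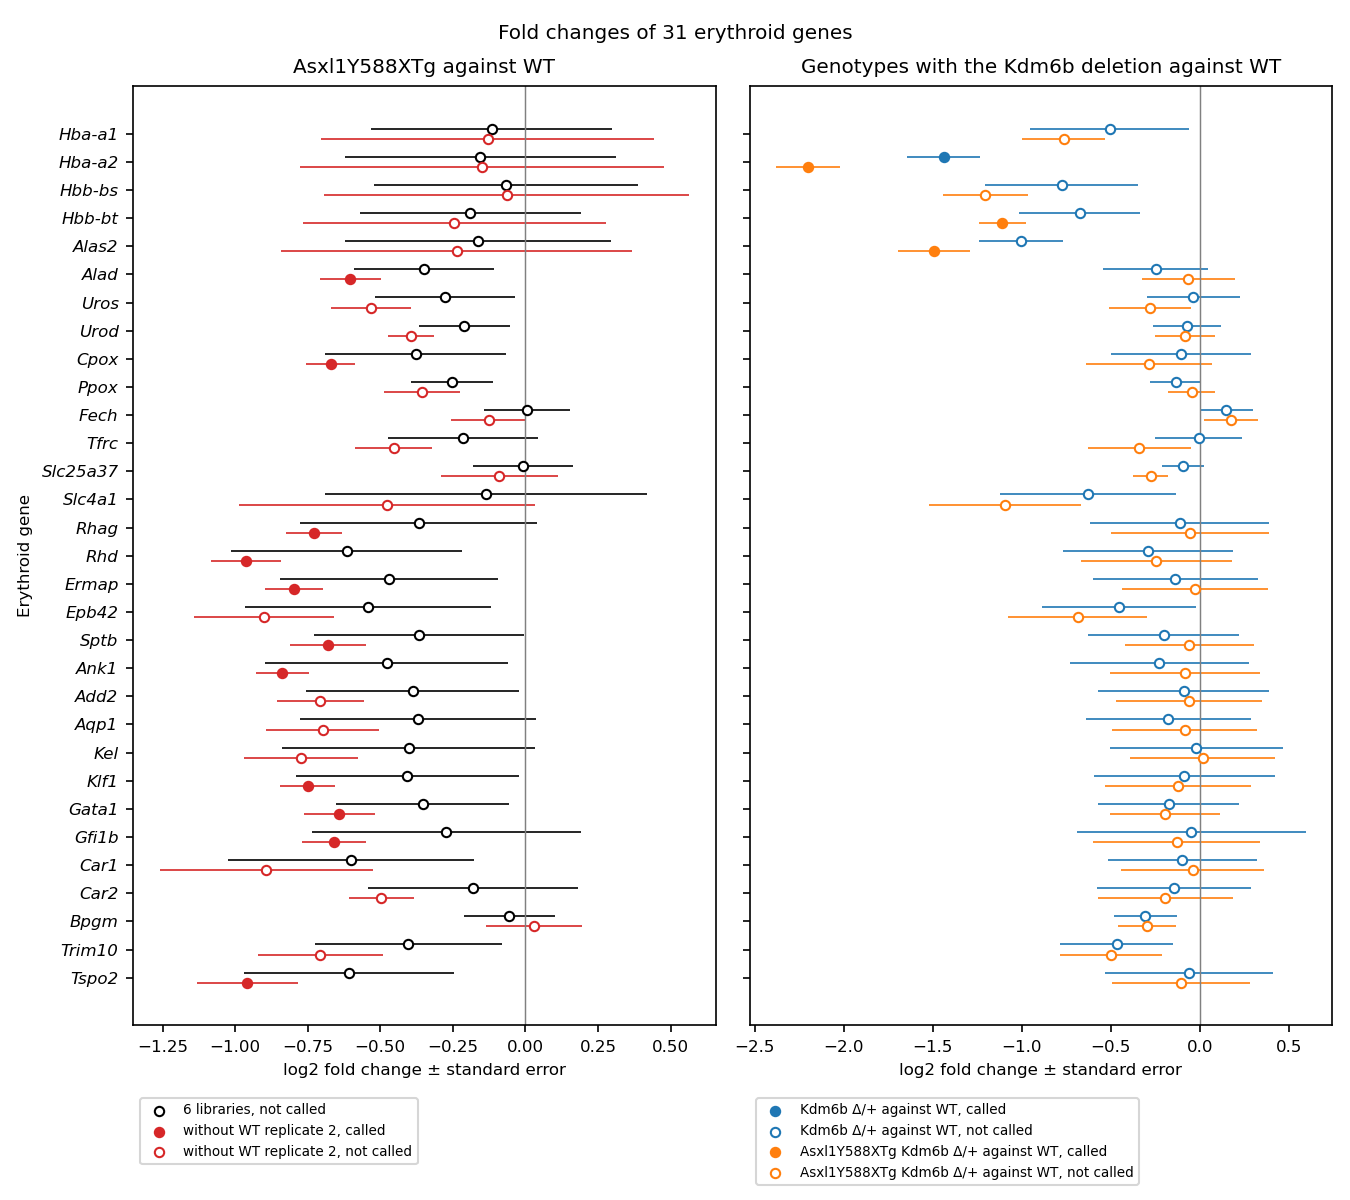
Log2 fold changes ± SE (x axis) of the 31 erythroid genes (y axis) in Asxl1Y588XTg against WT with all 6 libraries or without WT replicate 2 (left) and in both genotypes with the *Kdm6b* deletion against WT (right), with filled points for called genes. Leaving out WT replicate 2 called 11 genes and not the globins, whereas on the right the called genes were *Hba-a2*, *Hbb-bt*, and *Alas2*.

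In Asxl1Y588XTg Kdm6bΔ/+ cells compared with Asxl1Y588XTg cells, 0 of 31 genes were called (0.145% of all genes were called higher and 1.59% lower). The 4 globins had log2 fold changes from -2.04 (*Hba-a2*, SE 0.58, adjusted p = 0.196) to -0.65 (*Hba-a1*, SE 0.54, adjusted p = 0.656), *Alas2* had -1.32 (SE 0.57, adjusted p = 0.373), and *Slc4a1* -0.95 (SE 0.49, adjusted p = 0.451). The other membrane and cytoskeleton genes ranged from -0.14 (*Epb42*) to 0.44 (*Ermap*), and the 3 transcription factors from 0.14 to 0.29. At an unadjusted p under 0.05, 2 genes were higher and 1 was lower, against 5.64% and 9.81% of all genes. *Hba-a2* was called with DESeq2 (adjusted p = 0.0205), in the fit of all 4 genotypes (adjusted p = 0.0461), and without Asxl1Y588XTg replicate 3, the library with the highest globins (log2 fold change -1.29, adjusted p = 0.0387). Under these settings 2.47%, 0.948%, and 1.19% of all genes were called lower.

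Between Asxl1Y588XTg Kdm6bΔ/+ and Kdm6bΔ/+ cells, 0 of 31 genes were called with edgeR (0.0569% of all genes were called higher and 0.0379% lower). DESeq2 also called 0 of 31, when it called 87 of the 15825 genes tested higher and 17 lower. In edgeR's test 1 gene, *Hba-a2*, had an unadjusted p under 0.05, on the lower side (5.67% of all genes). Log2 fold changes ranged from -0.77 (*Hba-a2*, SE 0.24, adjusted p = 0.250) to 0.18 (*Alad*, SE 0.20), with a median of -0.04. The interaction asks whether deleting *Kdm6b* changed a gene differently in transgenic and in WT mice. It was called for 0 of 31 genes (0% of all genes were called higher and 0.0126% lower), and 0 of 31 reached an unadjusted p under 0.05 (2.15% of all genes higher and 4.72% lower). Its values ranged from -0.62 (*Hba-a2*, SE 0.58, adjusted p = 0.876) to 0.65 (*Rhd*, SE 0.56, adjusted p = 0.863). With SEs of this size, the data do not resolve whether the *Kdm6b* deletion acted alike on the globins of both backgrounds.

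Other erythroid genes were read from a list of 90 genes, of which 82 were tested. In Asxl1Y588XTg against WT cells, 1 of 82 (1.22%) was called higher, against 1.58% of all genes, and 0 lower. In Asxl1Y588XTg Kdm6bΔ/+ against Asxl1Y588XTg cells, 1 (1.22%) was called lower, against 1.59% of all genes, and 0 higher, so neither share was above that of all genes. In the other comparisons and the interaction 0 were called. The single gene called each time was *Gata2*, a factor of stem cells and early progenitors that is replaced by GATA1 as red cells mature. It gave 1056, 736, and 1069 normalized counts in WT, 589, 832, and 571 in Kdm6bΔ/+, 1539, 1670, and 1536 in Asxl1Y588XTg, and 821, 616, and 870 in Asxl1Y588XTg Kdm6bΔ/+. The Asxl1Y588XTg libraries lay above every other library, with log2 fold changes of 0.73 against WT (SE 0.13, adjusted p = 0.0276) and of -1.02 when the *Kdm6b* deletion was added (SE 0.12, adjusted p = 0.00686). *Gata1* showed no such pattern, with log2 fold changes of -0.35 (SE 0.30, adjusted p = 0.836) and 0.16 (SE 0.17, adjusted p = 0.725). Over the 5 comparisons of genotypes, the 82 genes had medians from -0.075 to 0.068.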

How the data were processed

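RNA-Seq libraries of LK cells from 12 mice, 3 per genotype, were analysed. The authors trimmed reads, aligned them to mm10 with STAR, and deposited raw gene counts from HTSeq, which by default leaves out reads aligning equally well to several genes. Gene annotation and strand setting are not given in the sources used here. Counts were scaled by TMM, and each comparison was fitted to its 6 libraries with edgeR 4.0.16 (robust quasi-likelihood, R 4.3.3) on the 15825 genes kept by filterByExpr, with Benjamini-Hochberg adjustment over all of them. Normalized counts are counts over effective library size times the mean library size. Libraries with at least 100 counts on 4 Y-linked genes were taken to hold Y-linked transcripts. The test was checked on simulated counts. Alternatives were DESeq2 1.42.0, RLE scaling, other filters, a fit of all genotypes, a replicate block, a Y-linked term, and libraries left out. Summing globin copies and reading out the Y-linked term were added after seeing the data. Every erythroid gene could be named, and values in each library are given for the globins, *Alas2*, *Klf1*, *Gata1*, *Slc4a1*, *Car1*, *Tfrc*, and genes called in a comparison. The genes and lists were chosen with earlier results of these data known. Positions are from GENCODE vM21. Depth, with totals as given in the results, bounds counting error only, and the spread between 3 mice sets the precision.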

Additional observations from a re-analysis of the deposited data

How the results depend on the processing

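The counts of erythroid genes called lower changed with the following choices, and the cause was not tested. With all 4 genotypes in 1 fit, 0 genes were called in Kdm6bΔ/+ against WT (1 in the pairwise fit) and 0 in Asxl1Y588XTg Kdm6bΔ/+ against WT (3 in the pairwise fit), while 1 was called in Asxl1Y588XTg Kdm6bΔ/+ against Asxl1Y588XTg (0 in the pairwise fit), when 0%, 0.0316%, and 0.948% of all genes were called lower. In that larger fit *Hba-a2* had adjusted p-values of 0.852, 0.118, and 0.0461 in these comparisons, with log2 fold changes of -1.44, -2.21, and -2.06 (-1.44, -2.20, and -2.04 in the pairwise fits) and SEs of 0.41, 0.42, and 0.42 (0.21, 0.18, and 0.58). The term for Y-linked transcripts left 0 in both of these comparisons with WT (0% of all genes). It gave 0.058 for *Hbb-bt* in Asxl1Y588XTg Kdm6bΔ/+ against WT, a value that rests on a term estimated within the other genotypes. DESeq2 called 1 in Asxl1Y588XTg Kdm6bΔ/+ against Asxl1Y588XTg (2.47% of all genes) and 2 in Kdm6bΔ/+ against WT (0.0948%), where *Alas2* was added. In Asxl1Y588XTg Kdm6bΔ/+ against WT it added *Hbb-bs*, when 40 of 15825 genes were called lower. Summed globin copies gave 0 in Kdm6bΔ/+ against WT (0.0126% of all genes) and 1 in Asxl1Y588XTg Kdm6bΔ/+ against WT (0.0506%). Without a low count filter, 2 were called in Kdm6bΔ/+ against WT (0.0795% of all genes) and 3 had a higher interaction (*Ank1*, *Car1*, and *Rhd*, with 0.242% of all genes). When single libraries were left out, the number called lower ranged from 0 to 11 in Asxl1Y588XTg against WT (0.0126% to 0.265% of all genes), from 0 to 1 in Asxl1Y588XTg Kdm6bΔ/+ against Asxl1Y588XTg (0.31% to 1.59%), from 0 to 5 in Kdm6bΔ/+ against WT (0.00632% to 0.0695%), and from 1 to 4 in Asxl1Y588XTg Kdm6bΔ/+ against WT (0.0316% to 0.126%). RLE scaling, a minimum mean count of 50, and library sizes without the erythroid genes changed none of these counts by over 1.5 times. Same-numbered libraries did not deviate together (r from -0.12 to 0.08 over 18 pairs, against -0.14 to 0.18 over 36 other pairs). These values gave no sign that the numbers pair the mice, but with so few libraries they cannot exclude it. The replicate block gave 1 gene in Kdm6bΔ/+ against WT (0.0316% of all genes) and 3 in Asxl1Y588XTg Kdm6bΔ/+ against WT (0.126%), as without it. Leaving out a library left 1 group with 2 libraries.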

Other observations

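Among the 42 tested genes with every library with Y-linked transcripts below every other library, *Tmcc2* and *Tent5c* are named after their values were seen. *Tmcc2* ranged from 175 to 203 normalized counts with Y-linked transcripts and from 220 to 486 without them. *Tent5c*, a poly(A) polymerase gene, ranged from 423 to 618 and from 724 to 991. Most of the 42 genes are not erythroid, and *Xist* and the X-linked genes *Kdm5c* and *Kdm6a* were among them.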
